A study of Mus musculus with 4 samples.

Results

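The genes described here are the activin ligand subunits, their receptors and their antagonists, 9 genes of the 19938 measured: the ligand subunits Inhba and Inhbb, the type I receptors Acvr1, Acvr1b and Acvr1c, the type II receptors Acvr2a and Acvr2b, and the antagonists Fst and Bambi. They were chosen by gene symbol from the family, with it already known from these data that Inhba and Acvr1c stood high in the rescue, so the rescue values of both genes are descriptions without a test. Each of the 9 was read by 1 probe set with exactly 1 gene symbol. Cortical neurons were cultured from pups at postnatal day 0, Syt1-deficient or wild type, on a mixed background of SV129 and C57BL/6, and no label ties an array to a genotype. They were infected at 5 days in vitro and RNA was taken at 14 to 15 days. The rescue cultures received lentiviral shRNAs against calmodulin together with a wild-type calmodulin that resists them (2 arrays), the knockdown cultures received the shRNAs alone (2 arrays), and control cultures received control lentivirus. Every value is the deposited ratio of a rescue or knockdown array to the control array of the same repeat, so within a repeat the rescue and the knockdown share 1 control array. The sources used here do not give the driving promoters of the lentiviruses.

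Activins are dimers of inhibin beta subunits and belong to the TGF-beta family. A ligand binds a type II receptor kinase, which phosphorylates a type I receptor, and this in turn activates SMAD transcription factors. Follistatin traps the ligand outside the cell, and BAMBI is a receptor without a kinase domain that dampens signalling. In neurons Inhba is known as a gene induced by synaptic activity and nuclear calcium, and activin A as a factor that protects neurons and shapes dendritic spines.

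Against the knockdown, Inhba and Acvr1c stood highest of the 9 genes in the rescue, Inhba at a geometric mean of 3.62 times the knockdown and Acvr1c at 3.41 times. Both lay above control in both rescue arrays and below it in both knockdown arrays. The other 7 genes differed less between rescue and knockdown, between -0.28 and 0.50 on the log2 scale. In limma 0 of the 7 passed, and few genes did at all: 0.0301% of all genes with the rescue higher and 0.0401% with it lower. Acvr2a had repeats that went opposite ways, and Inhbb, Acvr1b and Bambi stayed within about the spread of their repeats.

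Promoters are shown for the ligand subunit and the receptor that stood highest in the rescue, since they differ in base composition. Promoter windows from RefSeq (GRCm38.p6) were read for 7 of the 9 genes, in 8 windows, and none was read for Fst and Bambi. The search of member windows skipped a chromosome, and any window on it was not counted. The 250 bases before the start of Inhba (chr13:16011601-16011850, plus strand) and of the upstream start of Acvr1c (chr2:58357759-58358008, minus strand) read as follows, in lower case, with capitals for a TATA box (TATAAA) and for GC boxes (GGGCGG), each searched on both strands.
Inhba: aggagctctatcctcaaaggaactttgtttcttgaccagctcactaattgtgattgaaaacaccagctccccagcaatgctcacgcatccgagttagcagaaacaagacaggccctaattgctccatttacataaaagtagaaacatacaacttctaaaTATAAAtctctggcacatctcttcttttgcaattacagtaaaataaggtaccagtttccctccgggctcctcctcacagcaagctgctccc
Acvr1c: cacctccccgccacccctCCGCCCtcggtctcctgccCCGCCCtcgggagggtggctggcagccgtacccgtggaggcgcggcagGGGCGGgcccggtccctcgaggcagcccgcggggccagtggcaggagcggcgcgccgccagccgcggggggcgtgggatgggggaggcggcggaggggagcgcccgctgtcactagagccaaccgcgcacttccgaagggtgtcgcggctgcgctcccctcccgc

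The Inhba window was 43.2% G and C with 3 CpG pairs, and the Acvr1c window 79.6% with 32. The median over all 32851 windows was 52.4% G and C (38.8% and 69.2% at the 10th and 90th percentiles). A second start of Acvr1c had 49.6%, and the windows of the other 5 genes lay between 68% (Inhbb) and 85.6% (Acvr1). The Inhba window therefore sat below the median of all windows and the first windows of the 6 other genes near or above the 90th percentile.

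The Inhba window held 1 match to the TATA box letters, at 91 to 86 bases before the start, and 0 GC boxes. A TATA box match at any place in the window was found in 12.4% of all windows. All motifs here are matches of letters, and whether any acts as a promoter element was not tested. The Acvr1c window held 3 GC boxes, found in 32.7% of all windows, and 0 TATA boxes. The CRE core TGACG (17.8% of all windows), the full CRE TGACGTCA (1.55%), which contains that core, and the AP-1 site TGANTCA (6.75%) were searched on both strands and lay in 0 of the 8 windows. The SMAD box CAGAC (42.2%) lay in the windows of Acvr2a and Acvr2b, 1 each.

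**Figure D1:**
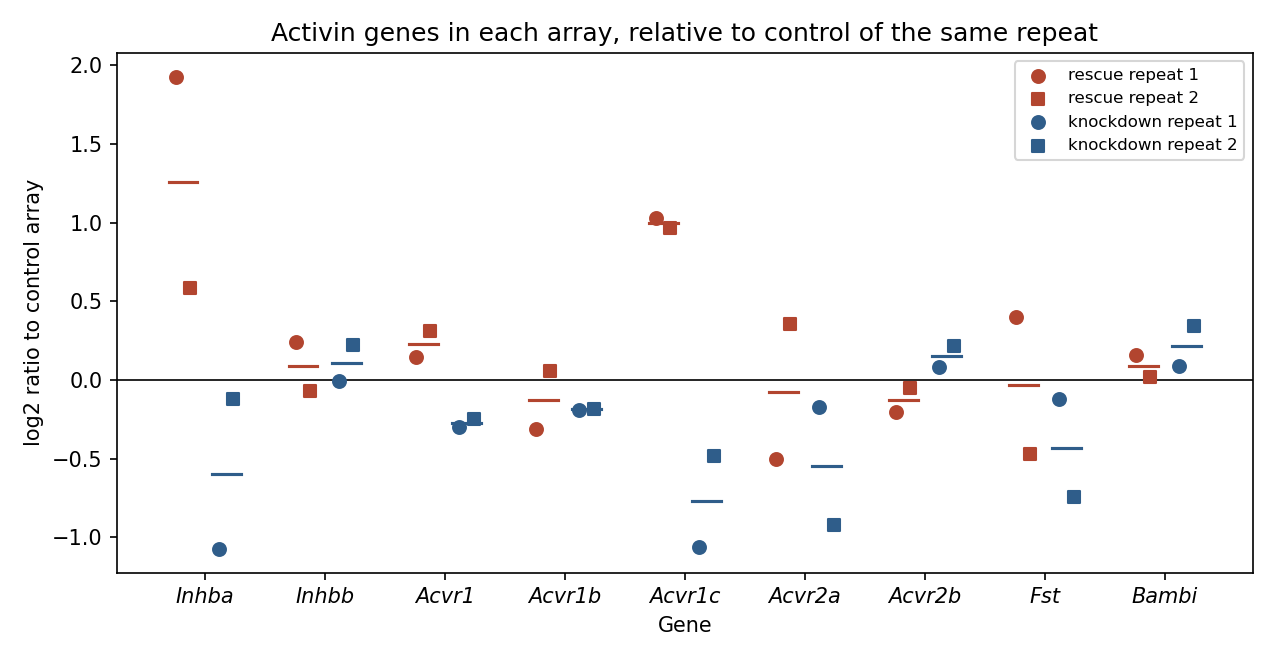
Log2 ratio to the control array of the same repeat (y axis) for each of the 9 genes (x axis), with rescue arrays in red left of knockdown arrays in blue, circles for repeat 1, squares for repeat 2 and short lines for means of 2 arrays. Inhba and Acvr1c lie above 0 in both rescue arrays and below 0 in both knockdown arrays.

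Inhba encodes the inhibin beta A subunit, the chain of activin A. Its ratio to control was 3.80 and 1.502 in the rescue arrays of repeats 1 and 2, and 0.475 and 0.919 in the knockdown arrays. The rescue arrays were both above control and the knockdown arrays both below, without overlap, but repeat 1 lay far from control on both sides and repeat 2 much nearer. Within repeats, rescue over knockdown was 7.999-fold in repeat 1 and 1.64-fold in repeat 2. The mean difference of 1.86 on the log2 scale (SE 0.44, n = 2 per group) ranked 8th from the highest of 19938 genes. Without rescue replicate 1 it was 1.19.

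In the knockdown alone Inhba was at -0.60 on the log2 scale (SE 0.31, n = 2) against control and did not pass the limma test (adjusted p = 0.392). That mean was made of -1.07 in repeat 1 and -0.12 in repeat 2, a spread larger than the mean itself.

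Inhbb encodes the beta B subunit of activin B. Its ratios were 1.18 and 0.954 in the rescue and 0.995 and 1.17 in the knockdown, so the groups overlapped. Rescue minus knockdown was -0.02 on the log2 scale (SE 0.19, limma adjusted p = 1.00), with 0.25 in repeat 1 and -0.29 in repeat 2. Knockdown against control was 0.11 (SE 0.13, limma adjusted p = 0.731). The ligand subunit genes thus had unlike values: Inhbb lay near control in all 4 arrays, as Inhba did in knockdown repeat 2 but not in the other 3.

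Acvr1c encodes the type I receptor also called ALK7, which takes activin B and related ligands. Its ratios were 2.04 and 1.95 in the rescue, against 0.480 and 0.716 in the knockdown. The rescue arrays lay close together, all 4 arrays kept to their group's side of control, and the groups did not overlap. Rescue over knockdown was 4.26-fold in repeat 1 and 2.72-fold in repeat 2, a mean of 1.77 on the log2 scale (SE 0.22, n = 2 per group) that ranked 9th of all genes.

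Against control, the knockdown value of Acvr1c was -0.77 on the log2 scale (SE 0.15, n = 2), at -1.06 in repeat 1 and -0.48 in repeat 2. It missed the threshold in limma (adjusted p = 0.0857). It passed in limma when the repeat was fitted as a block (adjusted p = 0.0199), as did 5.39% of all genes in either direction. It did so in a fit that leaves out the spread of the control arrays. Without knockdown replicate 2 it was -1.06 (limma adjusted p = 0.00538) and without knockdown replicate 1 it was -0.48 (limma adjusted p = 0.145). Each of these leaves 1 knockdown array, assumed to vary like the rescue arrays, which alone give the spread. After quantile normalization the value was -0.70 (limma adjusted p = 0.152). Acvr1c was the lowest of the 9 genes in the knockdown, though its range overlapped that of Inhba, the next in order.

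Acvr1 encodes a type I receptor used mainly by bone morphogenetic proteins and bound by activins as well. It is the next protein-coding gene to Acvr1c in RefSeq, with 0 others between them. Its ratios were 1.11 and 1.24 in the rescue and 0.813 and 0.841 in the knockdown. The groups did not overlap and lay on opposite sides of control, as for Acvr1c, at a much smaller size. Rescue minus knockdown was 0.50 on the log2 scale (SE 0.17, n = 2 per group), with 0.44 and 0.56 in the repeats, and did not pass (limma adjusted p = 0.510). Knockdown against control was -0.27 (SE 0.12, limma adjusted p = 0.309).

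Acvr1b encodes the main type I receptor of activin A. Its ratios were 0.805 and 1.04 in the rescue and 0.877 and 0.880 in the knockdown. The knockdown arrays lay between the rescue arrays. Rescue minus knockdown was 0.06 on the log2 scale (SE 0.19, limma adjusted p = 1.00) and knockdown against control was -0.19 (SE 0.13, limma adjusted p = 0.522).

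Acvr2a and Acvr2b encode the type II receptors that bind the ligand first. Acvr2a had ratios of 0.705 and 1.28 in the rescue and 0.886 and 0.529 in the knockdown. The groups overlapped and the repeats disagreed, with rescue minus knockdown at -0.33 in repeat 1 and 1.28 in repeat 2 on the log2 scale (mean 0.47, SE 0.33, limma adjusted p = 0.984). Its knockdown value against control was -0.55 (SE 0.23, limma adjusted p = 0.299), at -0.92 without knockdown replicate 1 (limma adjusted p = 0.0162) and -0.17 without knockdown replicate 2 (limma adjusted p = 0.947). Here too the lone knockdown array is assumed to vary like the rescue arrays.

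Acvr2b had ratios of 0.869 and 0.965 in the rescue and 1.06 and 1.16 in the knockdown. It was the one gene of the 9 whose rescue arrays both lay below its knockdown arrays, by -0.29 and -0.27 on the log2 scale in the repeats. The mean of -0.28 (SE 0.17, n = 2 per group) did not pass (limma adjusted p = 0.934), nor did knockdown against control at 0.15 (SE 0.12, adjusted p = 0.574).

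Fst encodes follistatin, the secreted protein that binds activins. Its ratios were 1.32 and 0.723 in the rescue and 0.920 and 0.597 in the knockdown. The groups overlapped, and in each group repeat 2 was the lower. Read within repeats, the rescue was above the knockdown in both, at 0.52 and 0.28 on the log2 scale (mean 0.40, SE 0.31, limma adjusted p = 1.00; 0.354 with the block). Knockdown against control was -0.43 (SE 0.22, limma adjusted p = 0.384; 0.0554 with the block).

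Bambi had ratios of 1.12 and 1.01 in the rescue and 1.07 and 1.27 in the knockdown, all at or above control, with overlapping groups. Rescue minus knockdown was -0.13 on the log2 scale (SE 0.18, limma adjusted p = 1.00). Knockdown against control was 0.22 (SE 0.12, limma adjusted p = 0.437).

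Read over the 9 genes, the rescue was above the knockdown in both repeats for 4 (Inhba, Acvr1c, Acvr1 and Fst) and below it in both for 1 (Acvr2b). Of all genes 24.3% and 30.1% met these conditions. The choice of Inhba and Acvr1c fixed their place in this and the next counts, and among the other 7 genes 2 (Acvr1 and Fst) were above in both repeats and 1 (Acvr2b) below. The groups did not overlap for 3 with the rescue higher and 1 with it lower, against 15.1% and 16.5% of all genes. Without Inhba and Acvr1c these counts were 1 (Acvr1) and 1 (Acvr2b) of 7. These 4 genes also had the groups on opposite sides of control in every array, Inhba, Acvr1c and Acvr1 with the rescue above it (4.45% of all genes) and Acvr2b with the rescue below it (4.42%). At least 1.5-fold higher in both repeats were 2, Inhba and Acvr1c (0.958% of all genes), a count that the choice of these genes used. The median of the 9 was 0.40 on the log2 scale, beside -0.02 over all genes; it includes Inhba and Acvr1c, and the other 7 had a median of 0.06. Of the 7 genes other than Inhba and Acvr1c, 0 passed in limma and 1 (Acvr1) had an unadjusted p under 0.05, as did 6.82% of all genes. Over all genes 6 were higher in the rescue (0.0301%) and 8 lower (0.0401%), or 1 and 3 when each array was centred on its median.

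**Figure D2:**
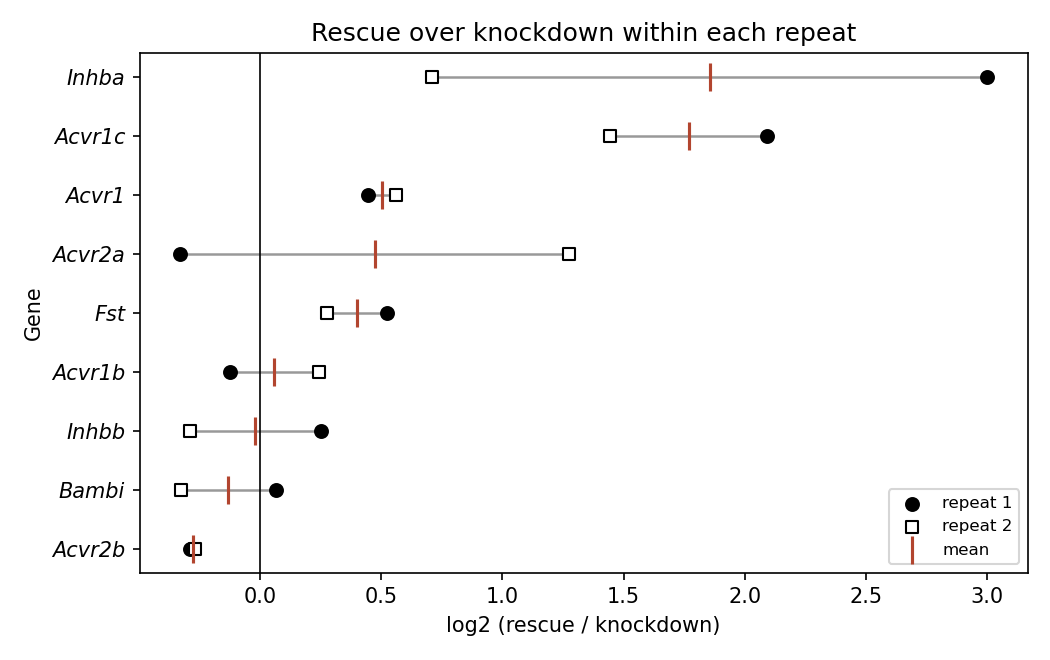
Log2 of rescue over knockdown (x axis) for each of the 9 genes (y axis, ordered by mean), with filled circles for repeat 1, open squares for repeat 2 and a red tick for their mean. Inhba spans 0.71 to 3.00 and Acvr1c 1.45 to 2.09, while 4 genes (Acvr2a, Acvr1b, Inhbb and Bambi) have repeats on opposite sides of 0.

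In the knockdown 6 of the 9 genes lay below control in both repeats (31.1% of all genes did) and 2, Acvr2b and Bambi, above it in both (30.5%). The order from the lowest mean was Acvr1c, Inhba, Acvr2a, Fst, Acvr1, Acvr1b, Inhbb, Acvr2b and Bambi. Neighbours in that order had overlapping ranges except Acvr1 with Acvr1b and Acvr1b with Inhbb. None of the 9 passed against control in limma (0 of 9), and 3 of them (Acvr1c, Acvr2a and Acvr1) had an unadjusted p under 0.05, as did 16% of all genes. Over all genes 27 were higher (0.135%) and 34 lower (0.171%) in the knockdown, or 13 and 7 after quantile normalization. The median of the 9 was -0.27 on the log2 scale, beside 0.00 over all genes.

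In the rescue 4 genes lay above control in both repeats (Inhba, Acvr1c, Acvr1 and Bambi; 24.9% of all genes) and 1, Acvr2b, below it in both (29.8%). The choice of Inhba and Acvr1c fixed their place in this count, which leaves Acvr1 and Bambi. Inhba and Acvr1c were at least 1.5-fold above control in both (0.16% of all genes), which again the choice of genes used. From the highest mean the order was Inhba, Acvr1c, Acvr1, Inhbb, Bambi, Fst, Acvr2a, Acvr1b and Acvr2b. The range of Inhba enclosed that of Acvr1c, Acvr1c and Acvr1 did not overlap, and all later neighbours did. The median of the 9 was 0.09 on the log2 scale, beside -0.01 over all genes. It includes Inhba and Acvr1c, and the other 7 had a median of -0.03.

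The genes whose 4 log2 ratios lay nearest to those of Acvr1c, by Euclidean distance over the 4 arrays, were Rem2, a small GTPase that binds calcium channels (distance 0.31), Klf10, a zinc finger factor induced by TGF-beta (0.43), Rgs2, a regulator of G protein signalling (0.45), Arc, an activity-induced synaptic protein (0.46), and Lamp5, a neuronal membrane protein (0.54). Rem2 was at 0.79 and 0.81 in the rescue and -0.999 and -0.36 in the knockdown on the log2 scale. Lamp5 was at 0.64 and 0.61 in the rescue and -1.17 and -0.54 in the knockdown. All 5 stood above control in both rescue arrays and below it in both knockdown arrays, as Acvr1c did.

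For Inhba the nearest were Asb11 (distance 0.73), Abcg2, an efflux transporter (0.79), Dmp1, a matrix protein of bone and tooth (0.83), Timp1, an inhibitor of matrix metalloproteases (0.86), and Nptx2, an activity-induced neuronal pentraxin (0.94). These distances were larger than those of Acvr1c's neighbours. Abcg2 was the one of the 5 that kept to the same side of control as Inhba in all 4 arrays, and the other 4 were above control in knockdown repeat 2, where Inhba was at -0.12.

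**Figure D3:**
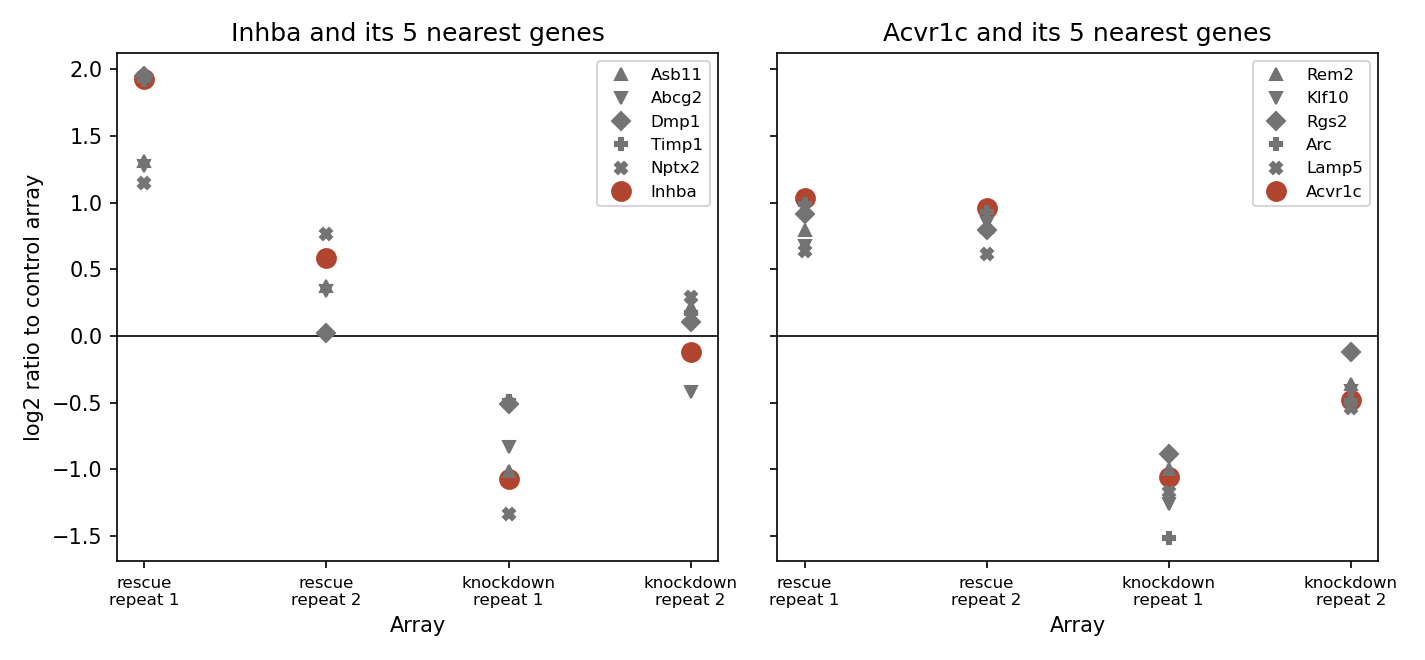
Log2 ratio to control (y axis) in the 4 arrays (x axis) for Inhba (left panel) and Acvr1c (right panel) as red circles, with the 5 nearest genes of each as grey marks. In rescue repeat 1 Inhba stands at 1.93 and its neighbours between 1.14 and 1.95, and in knockdown repeat 1 Acvr1c stands at -1.06 and its neighbours between -1.51 and -0.88.

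Other genes of the TGF-beta family pathway were read from 5 lists of ligands, receptors, antagonists, SMADs and targets, in which 64 of 68 genes were measured. For rescue against knockdown 0 of the 64 passed in limma, 7 had an unadjusted p under 0.05 (6.82% of all genes did) and 1, Klf10, passed with the repeat as a block (0.617% of all genes). Their median was -0.07 on the log2 scale, beside -0.02 over all genes. For knockdown against control 0 passed, 11 had an unadjusted p under 0.05 (16% of all genes), and 2, Klf10 and Gdf10, both lower, passed with the block (5.39% of all genes). For rescue against control 0 passed in limma, 5 had an unadjusted p under 0.05 (7.44% of all genes) and 0 passed with the block (0.125%).

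Klf10 was at 0.68 and 0.85 in the rescue and -1.26 and -0.41 in the knockdown (difference 1.60, limma adjusted p = 0.138; 0.0110 with the block). Pmepa1, a TGF-beta target that restrains SMAD signalling, was at 0.76 and 0.67 in the rescue and -0.39 and 0.17 in the knockdown (difference 0.82, limma adjusted p = 0.351). The inhibitory Smad7 was at 0.56 and 0.18 in the rescue and -0.55 and -0.08 in the knockdown (difference 0.69, limma adjusted p = 0.484). Skil, a repressor of SMAD activity, was at 0.27 and 0.29 in the rescue and -0.40 and -0.28 in the knockdown (difference 0.62, limma adjusted p = 0.360).

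These 4 genes, named as the members of their lists with the largest differences, were higher in the rescue than in the knockdown in both repeats. Among other targets, Id2, an inhibitor of helix-loop-helix factors, was also higher in the rescue in both repeats, at 0.44 and -0.21 in the rescue and 0.03 and -0.38 in the knockdown. Ccn2, a matricellular protein, was lower in the rescue in both, at 0.11 and -0.55 in the rescue and 0.18 and 0.69 in the knockdown. Id3, related to Id2, had repeats that differed in order, at 0.33 and 0.43 in the rescue and 0.02 and 0.74 in the knockdown. The signal-carrying Smad2 was at -0.09 and -0.23 in the rescue and -0.04 and -0.42 in the knockdown.

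Among ligands, Bmp2, a bone morphogenetic protein, was at 0.14 and 0.19 in the rescue and -0.73 and 0.06 in the knockdown. Gdf10, a growth factor related to Bmp3, was at -0.09 and 0.09 in the rescue and -0.47 and -0.47 in the knockdown (knockdown against control, limma adjusted p = 0.128; 0.0431 with the block). Gdf11, which also uses activin receptors, was at -0.61 and -0.42 in the rescue and -0.32 and -0.26 in the knockdown, below control in all 4 arrays. The antagonist Nog, noggin, was at 0.06 and 0.37 in the rescue and -0.41 and -0.28 in the knockdown (difference 0.56, limma adjusted p = 0.490), and the receptor Tgfbr1, a type I receptor of TGF-beta itself, at -0.02 and 0.21 in the rescue and -0.26 and -0.21 in the knockdown.

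Because Inhba is also an activity-regulated gene, 26 other such genes were read beside it. In the rescue against the knockdown 17 were higher in both repeats and 0 lower in both, and 11 were at least 1.5-fold higher in both; of all genes 24.3%, 30.1% and 0.958% were. Their median was 0.80 on the log2 scale, at 1.28 in repeat 1 and 0.40 in repeat 2, beside 0.01 and -0.05 over all genes. Repeat 1 was thus the one with the larger difference both for this list and for Inhba (3.00 against 0.71). In limma 1 of the 26, Homer1, a postsynaptic scaffold, was higher in the rescue (difference 1.38, adjusted p = 0.0499), against 0.0301% of all genes, and 9 passed with the repeat as a block, against 0.617% of all genes in either direction.

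Ptgs2, the inducible cyclooxygenase, was at 2.29 and 2.26 in the rescue and -1.25 and 0.19 in the knockdown (difference 2.81, limma adjusted p = 0.0748; 0.00757 with the block). Arc was at 0.99 and 0.93 in the rescue and -1.51 and -0.49 in the knockdown (1.96, limma adjusted p = 0.108; 0.0131 with the block). Npas4, an activity-induced transcription factor, was at 0.54 and 1.70 in the rescue and -2.07 and -0.11 in the knockdown. Egr3, another, was at 0.24 and 0.61 in the rescue and -1.75 and -0.75 in the knockdown. Like Inhba, these genes had their lowest value in knockdown repeat 1. Over the 26 genes the knockdown median was -0.77 in repeat 1 but 0.22 in repeat 2. In the knockdown 9 lay below control in both repeats (31.1% of all genes) and 1 above it in both (30.5%). In the rescue 24 lay above control in both repeats (24.9% of all genes) and 1 below it in both (29.8%).

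**Figure D4:**
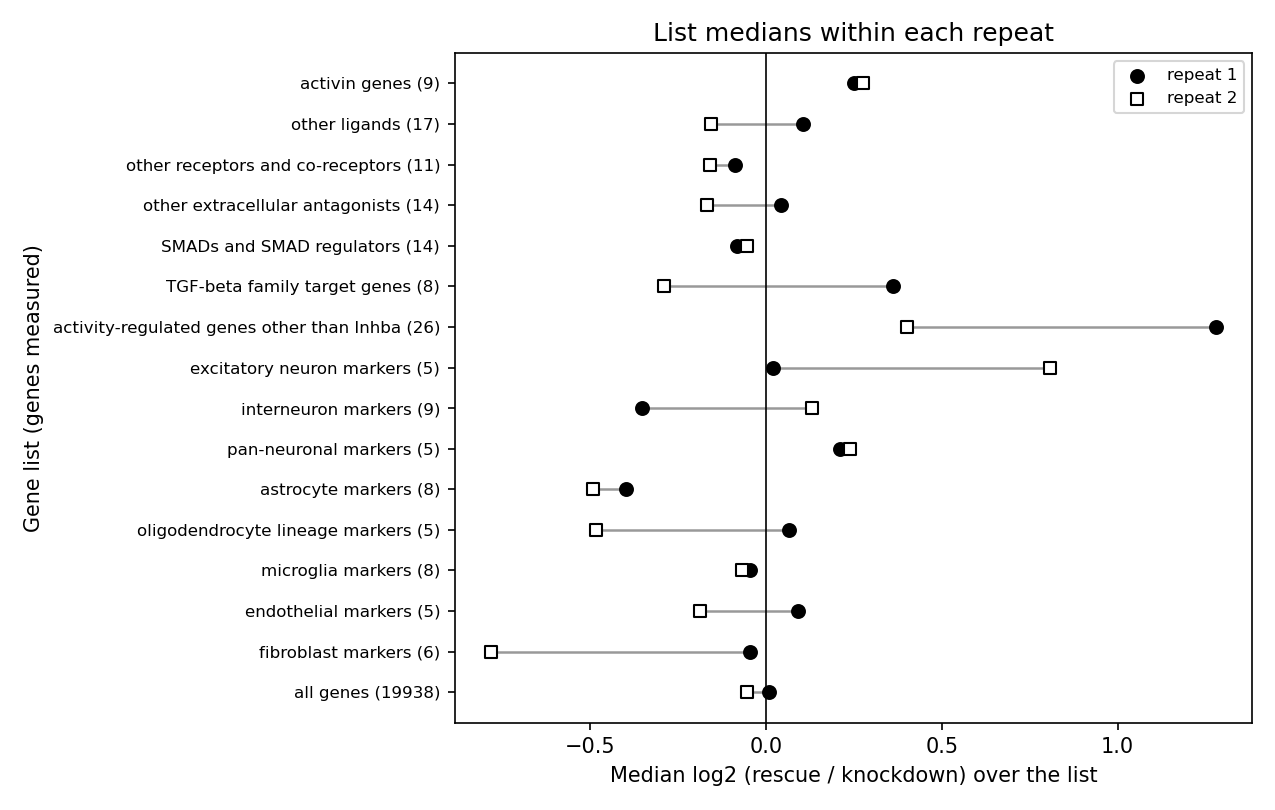
Median log2 of rescue over knockdown (x axis) for the 9 activin genes, 5 lists of TGF-beta family genes, activity-regulated genes, 8 lists of cell type markers and all genes (y axis, with the number measured), with filled circles for repeat 1 and open squares for repeat 2. The activity-regulated list lies at 1.28 and 0.40 and the astrocyte list at -0.40 and -0.49.

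Markers of cell types were read in the same arrays. The ratios carry no level, so whether a marker, neuronal or glial, is present at all cannot be read from them, and in these bulk cultures fewer cells of a type and less RNA per cell cannot be told apart. All 8 astrocyte markers were lower in the rescue than in the knockdown in both repeats, as were 30.1% of all genes. In limma 0 of the 8 passed, 4 had an unadjusted p under 0.05 (6.82% of all genes) and 0 passed with the block (0.617%). Of all genes 0.0301% passed in limma as higher and 0.0401% as lower. The astrocyte medians were -0.08 and -0.11 in the rescue arrays and 0.27 and 0.37 in the knockdown arrays. Of 5 excitatory neuron markers 4 were higher in the rescue than in the knockdown in both repeats, as were 24.3% of all genes. The medians of the 5 were -0.06 and -0.18 in the rescue and -0.44 and -1.04 in the knockdown. For rescue against knockdown none passed in limma (0 of 5), and 1 passed with the block (0.617% of all genes). For knockdown against control 0 of the 5 passed in limma. Of these markers 4 had an unadjusted p under 0.05 (16% of all genes) and 3, all lower, passed with the block (5.39%). Of the 8 astrocyte markers 0 passed there, 5 had an unadjusted p under 0.05, and 3, all higher, passed with the block. The block leaves out the spread of the control arrays. Of 9 interneuron markers 0 were higher and 2 lower in the rescue than in the knockdown in both repeats (median difference -0.11). Among 5 pan-neuronal markers 3 were higher and 1 lower (median difference 0.22). The shares of all genes were 24.3% higher and 30.1% lower. Fibroblast markers had medians of -0.06 and -0.11 in the rescue and -0.06 and 0.53 in the knockdown, and microglia markers -0.41 and -0.17 in the rescue and -0.40 and -0.02 in the knockdown. The part of these marker values in the values of Inhba, Acvr1c and the other activin genes was not tested.

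Of the targeted genes, those read here were below control in every array. Calm2 was at -0.84 and -1.28 in the rescue and -1.08 and -1.72 in the knockdown, and Calm3 at -2.41 and -3.55 in the rescue and -1.32 and -2.40 in the knockdown, on the log2 scale. The sources used here do not say whether these probe sets read the resistant calmodulin. Across genes the log2 ratios had standard deviations of 0.243 and 0.232 in the rescue arrays and 0.242 and 0.349 in the knockdown arrays, so knockdown repeat 2 was the most widely spread. The labels do not tell whether repeats were separate cultures, and a p-value here measures no more than the spread between samples, possibly technical.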

How the data were processed

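Expression was read on Affymetrix mouse Gene 1.0 ST arrays in 2 rescue and 2 knockdown samples. The authors deposited linear ratios of each array to its repeat's control array, per the labels and the design text. The sources used here give no background correction, summarization, normalization or genome build. The number of arrays limits the precision.

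Of 35399 probe sets, 21789 had exactly 1 symbol in the platform annotation, 1621 several, and 11989 were not listed in it. Through Entrez identifiers 21698 of the 21789 matched RefSeq (GRCm38.p6). Ratios were put on the log2 scale and averaged per symbol (19938 genes). They were tested in limma 3.58.1 (R 4.3.3; lmFit, eBayes, two-sided), with a coefficient per group, all 4 columns sharing the spread (2 residual and 6.11 prior degrees of freedom), and Benjamini-Hochberg adjustment over all genes at 0.05. The difference is rescue minus knockdown. Without the block described below, tests against control see the spread of the control arrays through the repeats alone. The fit was tested on simulated data for rescue against knockdown alone. Those data had independent columns, with no shared control array and no repeat effect, unlike the arrays here.

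The activin genes and all lists were chosen with earlier results of these data known. Always named were the 9 genes, Calm2 and Calm3. Lists could add up to 4 genes each in each comparison, by size of mean change with 1 sign in both repeats. The 5 genes nearest to Inhba and to Acvr1c were also named, leaving out predicted genes, receptor segments and small RNAs. Other genes named were picked after their values were seen, and are given as description.

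Replicate numbers pair the samples, since per the labels a rescue and a knockdown array share each replicate date. Across genes, the deviations of paired columns from group means had a correlation of 0.305. The alternative fit took the repeat as a block. The block also takes up what the rescue and knockdown columns of a repeat share, their control array included. Tests against control with the block therefore leave out the spread of the control arrays, and their p-values can be too small. Other alternatives were quantile normalization, median centring, separate probe sets, fits of 1 group alone, predicted genes left out, robust empirical Bayes and leaving out each replicate.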

Additional observations from a re-analysis of the deposited data

Results flagged for a closer look

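Some genes had both rescue arrays on one side of control and both knockdown arrays on the other. Of all genes, 4.45% had the rescue above and the knockdown below control in this way, and 4.42% the reverse. Among the activin genes these were Inhba, with rescue minus knockdown at 1.86 on the log2 scale, Acvr1c at 1.77, Acvr1 at 0.50 and, the other way round, Acvr2b at -0.28. The differences of Inhba and Acvr1c were not tested, since these genes were chosen with their rescue values known, and those of Acvr1 and Acvr2b did not pass (limma adjusted p = 0.510 and 0.934).

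The lists were searched for this pattern only among genes picked by size of change or as nearest to Inhba or Acvr1c. They can hold other genes with it. Picked genes of the pathway lists with the same pattern were Klf10 (1.60), Smad7 (0.69), Skil (0.62) and Nog (0.56). Tgfbr3 (-0.34), the TGF-beta co-receptor betaglycan, had it the other way round. Picked activity-regulated genes with it were Npas4 (2.21), Arc (1.96), Egr3 (1.68), Homer1 (1.38) and Rgs2 (1.36). Nearest genes with it, whose likeness to Inhba or Acvr1c chose them, were Rem2 (1.49), Lamp5 (1.48) and Abcg2 (1.44). Of the listed genes tested here, Homer1 passed in limma, just under the threshold (adjusted p = 0.0499; 0.00836 with the block). Over all genes the number higher in the rescue was 6 in this fit. It was 1 with median centring or quantile normalization, 12 with predicted genes left out and 86 with the block.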

How the results depend on the processing

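The count of 14 genes past the threshold for rescue against knockdown was 123 with the repeat as a block, 23 with predicted genes left out, 4 with median centring, robust empirical Bayes or separate probe sets, 2 after quantile normalization, and 0 to 350 without 1 replicate (0 without either rescue replicate, 350 without knockdown replicate 1, 147 without knockdown replicate 2). The 61 for knockdown against control were 1074 with the block, 120 with predicted genes left out, 20 after quantile normalization, 12 with the knockdown arrays alone, and 12 to 1272 without 1 replicate (1272 without knockdown replicate 1, 108 without knockdown replicate 2, 12 without either rescue replicate). The 0 for rescue against control (1484 genes at an unadjusted p under 0.05) became 25 with the block, 1 after quantile normalization, 176 with the rescue arrays alone, and 0 to 176 without 1 replicate (176 without either knockdown replicate). For the tests against control, the block leaves out the spread of the control arrays. The causes of these changes in count were not tested.

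Of 180 values of the activin genes under alternatives that keep all replicates or fit 1 group alone, 1 turned: Inhbb in rescue against knockdown, to 0.015 after quantile normalization. Acvr1c in knockdown against control passed with the block and no other call among the 9 genes tested there changed with it. Leaving out 1 replicate, Inhbb ranged from -0.17 to 0.14, Acvr1b from -0.13 to 0.25 and Fst from -0.035 to 0.83 in rescue against knockdown, and Inhbb from -0.0073 to 0.22 in knockdown against control. In rescue against control Inhbb ranged from -0.068 to 0.24, Acvr1b from -0.31 to 0.059, Acvr2a from -0.50 to 0.36 and Fst from -0.47 to 0.40. Inhba ranged from 1.19 to 2.52 and Acvr1c from 1.48 to 2.06 in rescue against knockdown. Ratios without intensities do not show which probe sets were dim.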
